A study of Rattus norvegicus with 19 samples.

Results

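The genes described here encode receptors for peptides and amines, together with the subunits of the nicotinic acetylcholine receptor, in the paraventricular nucleus (PVN) and supraoptic nucleus (SON) of the rat hypothalamus. They were chosen by name alone: a probe set belonged when its only annotated symbol began with one of the stems for the vasopressin, oxytocin, somatostatin, galanin, neuropeptide Y, melanin-concentrating hormone, orexin, opioid, tachykinin, cholecystokinin, melanocortin, endothelin, neurotensin, serotonin, adrenergic, dopamine, muscarinic, nicotinic and histamine receptors. This gave 80 genes, on 112 probe sets, of the 14217 genes that had a single symbol on the array. Where a gene had several probe sets, as 23 genes did, the one with the highest mean stood for it. Of the 17 families in the rule 16 had a gene here, and no probe set with a single annotated symbol matched the stem for the endothelin receptors. Probe sets with several symbols or none were not searched. Oprpn fits the stem for the opioid receptors but is annotated as a peptide precursor and not as a receptor.

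The groups were the spontaneously hypertensive rat (SHR), an inbred model of high blood pressure, and the normotensive Wistar-Kyoto rat (WKY), all labelled as 12 weeks old, untreated, and male by the study's methods. RNA of each nucleus was hybridised to Affymetrix arrays of the rat genome. The PVN was measured on 5 arrays per strain, and the SON on 5 arrays of WKY rats and 4 of SHR. The methods describe pooled nuclei, read here as a pool on each array, so the spread between arrays is that between pools and not between single rats. The deposited values were MAS5 signals, that is, probe intensities on a linear scale. Here each array was scaled to its median, signals under the 10th percentile of all signals (a log2 signal of 1.91) were raised to that floor, and levels are given as log2 signals. A probe set was tested only if it had a group mean of 5.32 or more on this scale, and it was called when the adjusted p from limma, taken over all probe sets tested, was under 0.05. Levels of different genes were not compared, since each probe set has its own brightness.

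The PVN and SON both hold the large magnocellular neurones that send vasopressin and oxytocin to the posterior pituitary. The PVN in addition holds small parvocellular neurones, which drive the anterior pituitary and project to the brainstem and spinal cord. Most of the receptors here couple to G proteins, of which Gs raises and Gi lowers cyclic AMP while Gq raises intracellular calcium, whereas the nicotinic and 5-HT3 receptors are ion channels. Through such receptors neurones of both nuclei read signals of hunger, stress, blood volume and arousal.

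The peptides that mark both nuclei were bright on all arrays. Avp, the gene of vasopressin, had mean log2 signals between 12.03 and 12.38 in the 4 groups, and Oxt, the gene of oxytocin, between 11.90 and 12.15. The arrays that correlated least with their own group were SHR PVN arrays 1 and 4 (mean correlation 0.960 for each) and WKY SON array 3 (0.954). Between the strains in the PVN no receptor gene was called with all arrays or without SHR PVN array 4, but 2 were called without SHR PVN array 1, Drd2 and Oprk1. Leaving out SHR PVN array 1 also raised the calls among all probe sets, from 378 of 16135 to 726 of 16185. Without WKY SON array 3 the count in the SON was 3, as it was with all arrays, but the genes were not the same. Sstr1, called with all arrays, lost its call there (adjusted p = 0.0565).

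Of the 80 genes, 29 were bright enough to be tested in at least 1 comparison and 51 were not. The gene just inside the limit was Sstr4, with a highest group mean of 5.43, and the genes just outside it were Cckbr and Htr4, both at 5.20. Chrm1, Chrna3, Chrnb3 and Hrh4 lay at the floor on all arrays, 13 genes lay there on at least 10 arrays, and 49 were above it on every array. A gene that was not tested is dim on this array, and the data do not say whether its receptor is made.

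**Figure D1:**
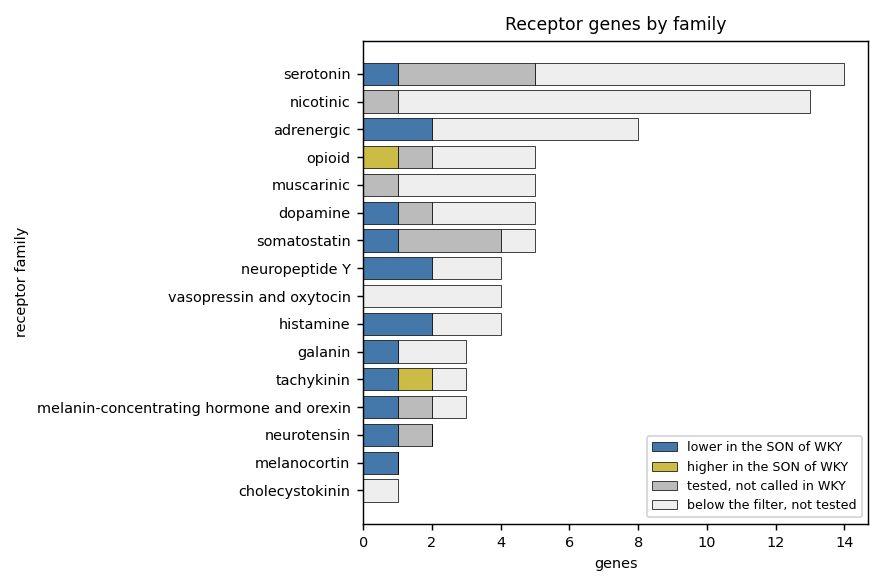
The number of receptor genes in each family on the array (horizontal axis, genes), divided into those lower in the SON than in the PVN of WKY, those higher there, those tested but not called in WKY, and those below the limit for testing. The nicotinic family had 13 genes with 1 tested, whereas 4 of the 5 somatostatin receptor genes were tested.

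The vasopressin and oxytocin receptors, through which magnocellular neurones respond to their own peptides, were all among the genes not tested. Oxtr lay at the floor on 18 of 19 arrays and reached 2.19 on WKY SON array 3. Avpr2, the receptor of vasopressin in the kidney, had group means between 3.78 and 4.54, and Avpr1b, that of the pituitary corticotroph, between 3.86 and 4.31. The strains and nuclei overlapped for both of these genes.

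Avpr1a, the vasopressin receptor of brain and vessels, was the exception in that its nuclei did not overlap in SHR. Its log2 signals were 4.29, 4.59, 4.46, 3.95 and 3.80 in the PVN of WKY and 4.93, 4.67, 4.54, 4.16 and 4.30 in that of SHR. In the SON they were 1.91, 1.91, 3.03, 3.72 and 3.93 in WKY, and all 4 SHR arrays were at the floor of 1.91. Every PVN array of SHR was thus above every SON array of SHR, and in WKY only the highest SON array (3.93) exceeded the lowest PVN array (3.80). When no limit on dim genes was set, Avpr1a was called lower in the SON in both strains (adjusted p = 0.0133 in WKY and 7.03e-05 in SHR). No fold change is given, because the SHR SON value is a bound set by the floor, and the strain difference in the SON had an adjusted p of 0.415 in that fit.

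The clearest differences among the receptor genes were between the nuclei. In WKY 16 of the 29 genes tested were called, 14 lower and 2 higher in the SON than in the PVN, against 26.9% of all probe sets tested (13.7% lower and 13.2% higher). In SHR 15 of 29 were called, 13 lower and 2 higher, against 29.4% of all probe sets (15.7% lower and 13.7% higher). The median difference of the 29 genes, SON minus PVN, was -0.43 in WKY and -0.41 in SHR on the log2 scale, beside -0.01 and -0.02 for all probe sets tested. These medians depended on the treatment of dim signals: they were -0.09 and -0.23 without a limit on dim genes, -0.52 and -0.67 with a stricter limit, and -0.28 and -0.30 with 16 added to each signal before taking log2. Without SHR SON array 3 the median in SHR was -0.21. With the methods' t-test after Benjamini-Hochberg adjustment 11 genes were called in each strain. That test lost the calls of Drd2, Galr2, Mc4r, Ntsr1 and Tacr1 in WKY and of Adra1b, Drd1, Hrh1, Htr2c and Htr7 in SHR, and it added Hcrtr1 in SHR. Of the 29 genes, 7 reached the limit for testing through the PVN alone, 3 through the SON alone and 19 through both. The 7 were Drd2, Galr2, Npy1r, Npy5r, Ntsr1, Htr7 and Sstr4, and the 3 were Htr2a, Htr3a and Tacr3. These genes were tested because their signal was high in 1 nucleus, so the limit itself favoured a difference in that direction. The counts therefore describe the genes bright enough to be measured and not the whole set. In bulk tissue, fewer cells of a type and less RNA per cell cannot be told apart.

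**Figure D2:**
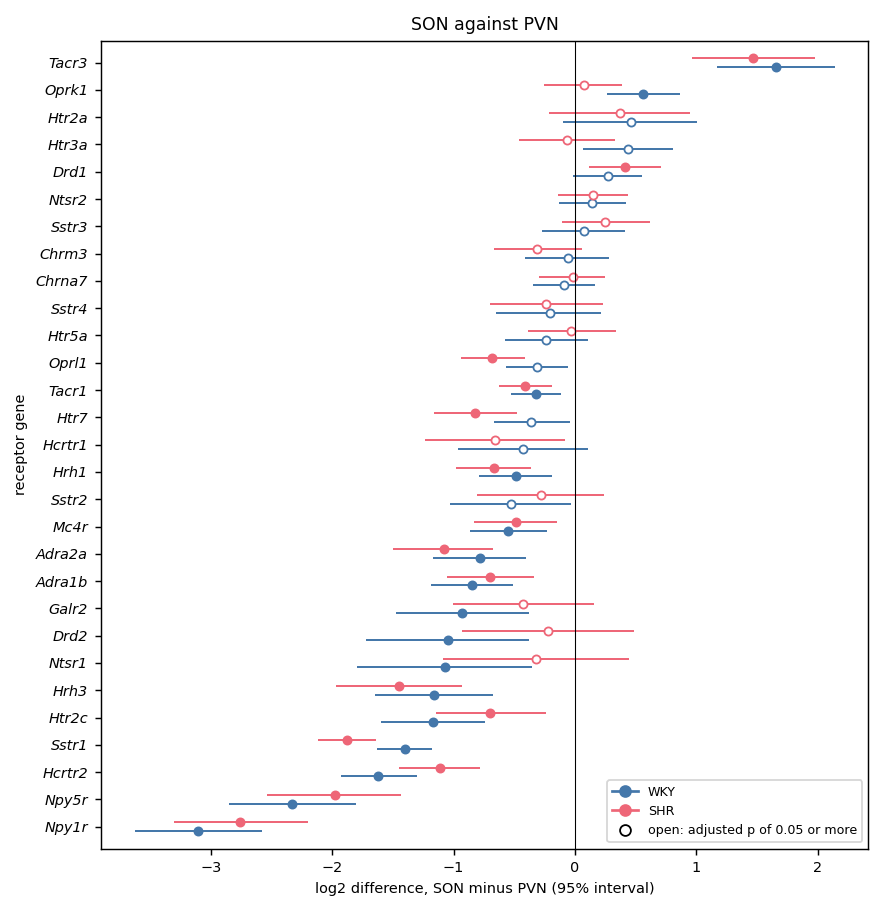
The log2 difference between SON and PVN (horizontal axis) of the 29 receptor genes tested, with 95% intervals, in WKY (blue) and SHR (red). Points are filled where the adjusted p was under 0.05. Npy1r, at the bottom, had differences of -3.11 in WKY and -2.76 in SHR, and Tacr3, at the top, of 1.66 and 1.47.

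The receptors of neuropeptide Y, a peptide that stimulates feeding, had the largest differences of the 29 genes. Npy1r, which encodes the Y1 receptor, had log2 signals of 6.73, 6.50, 6.97, 6.95 and 7.07 in the PVN of WKY and 6.90, 6.84, 6.89, 6.97 and 6.93 in the PVN of SHR. In the SON the values were 4.57, 4.31, 2.83, 3.32 and 3.67 in WKY and 4.05, 4.60, 4.36 and 3.59 in SHR. All PVN arrays lay well above all SON arrays, and within the PVN the SHR arrays lay inside the range of the WKY arrays. The log2 difference was -3.11 in WKY (SE 0.25, adjusted p = 6.60e-09) and -2.76 in SHR (SE 0.26, adjusted p = 8.85e-08). Its size rested on SON signals below the limit for testing, and with 16 added to each signal before taking log2 it was -2.12 in WKY and -2.0 in SHR, still called in both.

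Npy5r, which encodes the Y5 receptor, was lower in the SON as well. Its PVN values were 5.74, 5.88, 6.05, 5.28 and 5.74 in WKY and 5.96, 5.87, 5.95, 5.50 and 5.76 in SHR, and its SON values were 3.96, 4.25, 2.79, 2.95 and 3.09 in WKY and 4.42, 3.70, 3.92 and 3.28 in SHR. The nuclei did not overlap in either strain. The difference was -2.33 (SE 0.25, adjusted p = 4.85e-07) in WKY and -1.98 (SE 0.26, adjusted p = 8.11e-06) in SHR. Here too the SON signals were below the limit, and with 16 added the differences were -1.36 and -1.24, both called. A dimmer probe set of Npy5r that was not tested lay the same way, with group means of 4.22 and 3.91 in the PVN of WKY and SHR and 2.49 and 1.91 in the SON. The other receptors of the family were dim, Npy4r with group means between 4.47 and 4.86 and Npy2r with means between 1.91 and 2.78.

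Npy1r and Npy5r are neighbours on rat chromosome 16. In the RefSeq annotation of the GRCr8 build they lie on opposite strands with 0 genes listed between them and with start sites 8668 bases apart. The 250 bases before each start site are shown because both genes were lower in the SON, with those of Tacr3, the gene with the opposite pattern, for contrast. Capitals mark 3 short motifs on either strand: CGTCA, the core of the cAMP response element, the TATA box TATAAA, and the CCAAT box. Each sequence is written 5′ to 3′ on the strand of its gene.
Npy1r, chr16:27813388-27813637, minus strand: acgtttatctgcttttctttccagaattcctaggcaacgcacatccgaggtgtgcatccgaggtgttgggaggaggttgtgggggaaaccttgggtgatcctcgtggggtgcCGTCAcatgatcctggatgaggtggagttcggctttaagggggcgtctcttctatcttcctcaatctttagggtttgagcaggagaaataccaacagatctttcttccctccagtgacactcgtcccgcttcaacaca
Npy5r, chr16:27821805-27822054, plus strand: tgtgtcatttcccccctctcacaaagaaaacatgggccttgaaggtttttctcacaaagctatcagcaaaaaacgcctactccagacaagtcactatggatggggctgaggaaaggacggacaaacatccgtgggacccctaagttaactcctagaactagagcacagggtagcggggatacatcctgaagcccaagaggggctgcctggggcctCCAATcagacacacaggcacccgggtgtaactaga
Tacr3, chr2:225940247-225940496, plus strand: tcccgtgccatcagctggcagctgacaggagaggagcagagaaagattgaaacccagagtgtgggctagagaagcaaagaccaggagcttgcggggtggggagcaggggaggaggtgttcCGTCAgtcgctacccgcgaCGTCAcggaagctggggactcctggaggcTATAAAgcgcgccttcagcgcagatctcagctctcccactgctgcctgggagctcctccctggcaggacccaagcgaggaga
The Npy1r stretch held a CGTCA 138 bases before its start and no other of these motifs. That of Npy5r held a CCAAT 35 bases before its start, and that of Tacr3 held a TATAAA at 82 bases and the CGTCA core at 2 places. The core, which is also part of the whole element TGACGTCA, occurred in 18.2% of the 33469 promoters of the same length in the table, the TATA box in 12.9% and the CCAAT box in 34%. Of the 66 receptor genes with a promoter in the table, 15 (22.7%) held the core, 7 (10.6%) the TATA box and 18 (27.3%) the CCAAT box. These are matches of letters and say nothing of whether a factor binds there. Oprk1 had no entry in the table.

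Tacr3 was the one receptor gene that was higher in the SON than in the PVN in both strains. It encodes the NK3 receptor, through which neurokinin B and substance P excite magnocellular neurones. In the PVN its log2 signals were 4.85, 4.98, 5.37, 5.41 and 5.56 in WKY and 5.47, 4.49, 4.67, 4.71 and 3.64 in SHR. In the SON they were 6.72, 6.90, 7.05, 7.08 and 6.72 in WKY and 5.88, 6.10, 6.42 and 5.86 in SHR. The nuclei did not overlap in either strain, and in the SON the strains did not overlap either. The SON was 3.16-fold higher in WKY (1.66, SE 0.23, adjusted p = 1.40e-05) and 2.77-fold higher in SHR (1.47, SE 0.24, adjusted p = 1.03e-04). Tacr1, which encodes the substance P receptor NK1, went the other way by a smaller amount (-0.32, adjusted p = 0.0159 in WKY and -0.41, adjusted p = 0.00407 in SHR). The call of Tacr1 in WKY was lost without WKY SON array 5 (-0.27, adjusted p = 0.0504). Tacr2 was at or near the floor, with group means between 2.04 and 2.65.

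Sstr1, one of the receptors of the inhibitory peptide somatostatin, was lower in the SON of both strains. Its PVN values were 7.10, 6.94, 7.29, 7.08 and 6.92 in WKY and 7.12, 7.26, 6.86, 7.11 and 7.08 in SHR, and its SON values were 5.81, 5.73, 5.66, 5.36 and 5.74 in WKY and 5.14, 5.35, 5.20 and 5.13 in SHR. The nuclei lay far apart, and every SHR SON array was below every WKY SON array. The difference between nuclei was -1.40 (SE 0.10, adjusted p = 2.47e-09) in WKY and -1.88 (SE 0.11, adjusted p = 7.25e-11) in SHR. Both other probe sets of Sstr1 were below the limit in all groups, and the brighter of these had its highest mean, 3.72, in the SON of WKY, so the 3 probe sets did not share the pattern. Sstr3, which couples to the same inhibitory G proteins, did not pass the test in either strain (0.07 and 0.25), nor did Sstr2 (-0.53 and -0.28) or Sstr4 (-0.21 and -0.24). A second probe set of Sstr2, too dim to be tested, lay further apart, with group means of 4.70 and 4.93 in the PVN and 2.49 and 2.19 in the SON of WKY and SHR. Sst itself, the gene of the ligand, was lower in the SON by a far larger amount than its receptor (-4.79 in WKY and -4.58 in SHR).

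Hcrtr2 and Hrh3 belong to the arousal systems, since orexin and histamine both come from neurones that are active in waking. Hcrtr2, the orexin 2 receptor, had PVN values of 6.44, 6.43, 6.19, 6.73 and 6.92 in WKY and 6.38, 6.58, 6.52, 6.49 and 6.54 in SHR. Its SON values were 4.77, 5.38, 4.89, 5.04 and 4.55 in WKY and 5.21, 5.50, 5.19 and 5.66 in SHR. The nuclei were separate in both strains, and the strains overlapped in both nuclei. The difference was -1.62 (SE 0.15, adjusted p = 5.96e-08) in WKY and -1.11 (SE 0.16, adjusted p = 1.84e-05) in SHR.

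Hrh3, the histamine H3 receptor, which on nerve endings holds back the release of transmitter, had PVN values of 6.63, 6.19, 6.88, 6.79 and 5.84 in WKY and 7.16, 6.69, 6.66, 6.70 and 6.89 in SHR. In the SON they were 5.78, 5.08, 5.83, 5.22 and 4.58 in WKY and 5.15, 5.28, 5.93 and 5.13 in SHR. The PVN arrays were above the SON arrays in both strains, though only narrowly in WKY (5.84 against 5.83). The difference was -1.16 (SE 0.23, adjusted p = 7.49e-04) in WKY and -1.45 (SE 0.24, adjusted p = 1.37e-04) in SHR. A second probe set of Hrh3, too dim to be tested, had group means of 4.81 and 4.77 in the PVN and 3.49 and 3.08 in the SON of WKY and SHR. Hrh1, the excitatory H1 receptor, was lower in the SON too (-0.49, adjusted p = 0.0115 in WKY and -0.67, adjusted p = 0.00163 in SHR), whereas Hcrtr1 did not pass the test (-0.43 and -0.66, adjusted p = 0.229 and 0.0741). The 6 genes called with at least a 2-fold difference in both strains were Npy1r, Npy5r, Sstr1, Hcrtr2, Hrh3 and Tacr3.

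**Figure D3:**
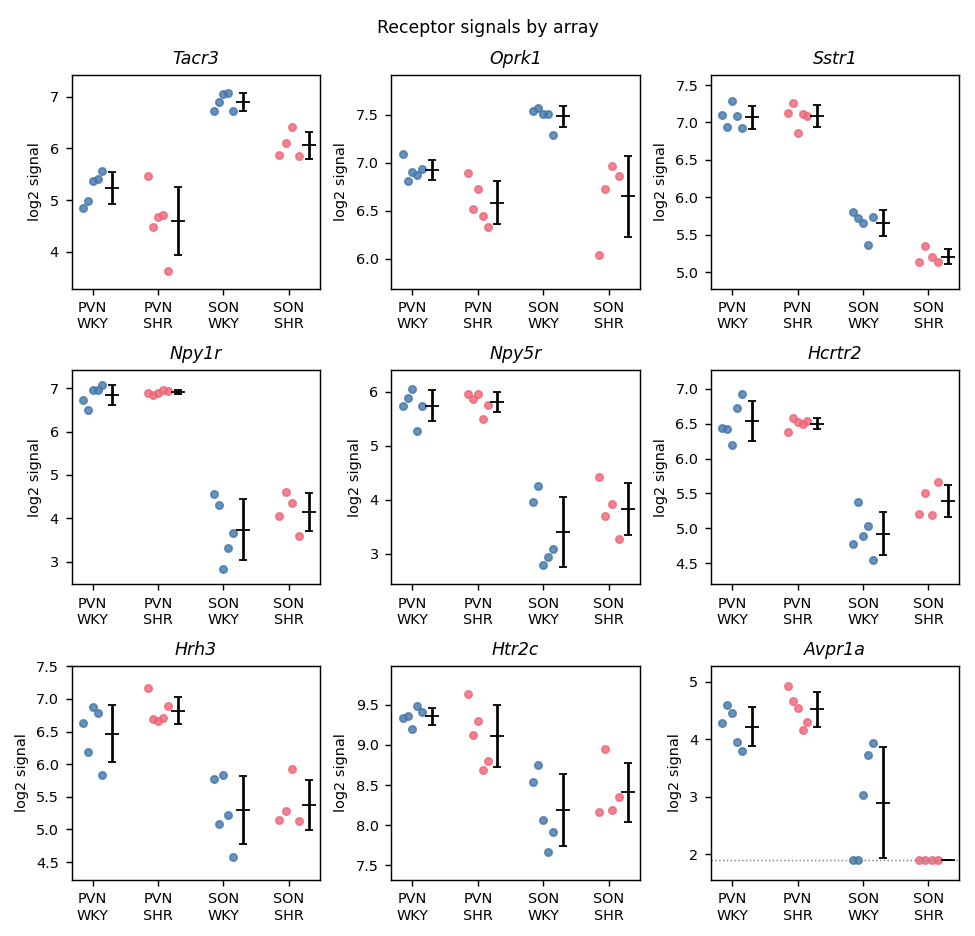
Log2 signals (vertical axes, each with its own range) of 9 receptor genes on each array of the 4 groups, WKY in blue and SHR in red, with the mean and SD of the group in black beside the points. The dotted line is the floor of 1.91, on which all 4 SHR SON arrays of Avpr1a lie, and the SON arrays of Npy1r and Npy5r lie under all of their PVN arrays.

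Amine receptors were among the remaining calls between the nuclei, and those called were lower in the SON with the exception of Drd1. Adra1b, an excitatory noradrenaline receptor, had a difference of -0.85 in WKY (adjusted p = 3.89e-04) and -0.70 in SHR (adjusted p = 0.00331). Adra2a, the inhibitory receptor found on noradrenergic endings and their targets, had differences of -0.78 (adjusted p = 0.00287) and -1.08 (adjusted p = 2.37e-04). Htr2c, the serotonin 2C receptor, which is known from appetite control, had differences of -1.17 (adjusted p = 1.82e-04) and -0.70 (adjusted p = 0.0182). Its PVN arrays were all above its SON arrays in WKY, but in SHR the groups overlapped, with PVN values of 9.64, 9.12, 9.30, 8.69 and 8.80 against 8.16, 8.95, 8.19 and 8.35. The SHR call of Htr2c was lost without SHR PVN array 1, SHR SON array 1 or SHR SON array 3 (adjusted p between 0.0511 and 0.0609). A second, dimmer probe set of Htr2c had group means of 5.01 and 5.10 in the PVN and 4.93 and 4.69 in the SON. Mc4r, the melanocortin receptor through which the PVN restrains feeding, was lower in the SON by a modest amount (-0.55, adjusted p = 0.00936 in WKY and -0.49, adjusted p = 0.0246 in SHR), and its SHR call was lost without SHR PVN array 2 or 5 or SHR SON array 4 (adjusted p between 0.0520 and 0.0766).

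By the probe set that stood for each gene, 12 genes were called in both strains, 11 of them lower in the SON, with 4 called in WKY alone, 3 in SHR alone and 10 in neither. Among all probe sets tested 26.9% were called in WKY and 29.4% in SHR. The share of all probe sets called in both strains was not counted, so these counts have no such share beside them. The comparisons in WKY and in SHR set different arrays against each other, but both came from 1 fit of all arrays with a shared estimate of the spread. They are therefore not fully separate tests. Being called in 1 strain alone does not show a difference between the strains, which the interaction tests. In WKY alone Drd2, the inhibitory dopamine receptor, was lower in the SON (-1.05, adjusted p = 0.0173), as were Galr2, a galanin receptor (-0.93, adjusted p = 0.0110), and Ntsr1, the main neuronal neurotensin receptor (-1.07, adjusted p = 0.0251). The other probe set of Galr2 was also tested, and it was lower in the SON of both strains (-1.59, adjusted p = 5.75e-05 in WKY and -1.33, adjusted p = 6.22e-04 in SHR), so the restriction of Galr2 to WKY held for 1 of its 2 probe sets. The call of Drd2 was lost without WKY SON array 5 (-0.79, adjusted p = 0.0557), and that of Ntsr1 without WKY PVN array 1 or 3 (adjusted p = 0.0587 and 0.0538), without the limit on dim genes (adjusted p = 0.0686) and with arrayWeights, limma's weighting of arrays by quality (-0.68, adjusted p = 0.0643). Ntsr1 was at 2.77 on WKY SON array 3 and between 4.65 and 5.14 on the other WKY SON arrays, and without that array its difference was -0.65, still called. Oprk1 was the gene called higher in the SON in WKY alone. In SHR alone Oprl1, the nociceptin receptor (-0.68, adjusted p = 3.25e-04), and Htr7, a serotonin receptor that raises cyclic AMP (-0.82, adjusted p = 4.94e-04), were lower in the SON, and Drd1, the excitatory dopamine receptor, was higher (0.41, adjusted p = 0.0327). Drd1 lost its call without any 1 of 6 SHR arrays, namely PVN arrays 2, 4 and 5 and SON arrays 2, 3 and 4 (adjusted p between 0.0512 and 0.137). For WKY the differences of these 3 genes were -0.31 for Oprl1, -0.36 for Htr7 and 0.27 for Drd1.

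Among the genes called in neither strain, Ntsr2, a neurotensin receptor known from astrocytes, differed little between the nuclei (0.14 in WKY and 0.15 in SHR), and its group means lay between 10.27 and 10.43. Chrna7, the subunit of the homomeric nicotinic receptor, had differences of -0.09 and -0.02 and group means between 6.55 and 6.72. Chrm3, a muscarinic receptor coupled to Gq, had differences of -0.06 and -0.31. For Htr2a (0.46 and 0.37), Htr3a (0.44 and -0.07) and Htr5a (-0.24 and -0.03) the test was not passed either. The 95% interval of the difference of Ntsr2 ran from -0.12 to 0.41 in WKY and from -0.13 to 0.43 in SHR. Without a limit on dim genes, 19 of the 80 genes were called in WKY and 15 in SHR, but not the same ones: Drd2 and Ntsr1 lost their calls in WKY, and Mc4r and Drd1 theirs in SHR. Of all 31042 probe sets in that fit, 4498 were called in WKY and 4925 in SHR. That fit called Chrna4, the main partner subunit of the brain nicotinic receptor, lower in the SON in both strains, at group means of 4.30 and 4.08 in the PVN and 2.15 and 2.11 in the SON of WKY and SHR (adjusted p = 5.71e-04 and 0.00183). In WKY alone it called Oprm1, the mu opioid receptor, lower (4.08 against 2.53, adjusted p = 0.0222). The genes named are not all that this fit added in WKY. Not every dim gene lay lower in the SON. Adra2b, an adrenergic receptor, had group means of 2.48 in the PVN and 3.86 in the SON of WKY, and 3.31 and 3.30 in SHR.

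Markers of cells and regions moved with the nuclei. Of 4 magnocellular genes tested, Pdyn was higher in the SON in both strains (1.82 in WKY and 1.93 in SHR). Sim1 was called higher in WKY (0.39, adjusted p = 0.0381) and not in SHR (0.35, adjusted p = 0.0691). Avp (0.06 and 0.24) and Oxt (-0.02 and 0.20) did not pass the test in either strain. The 3 parvocellular genes (Crh, Trh and Sst) were all lower in the SON, with summed signals of 4420 to 5590 in the PVN and 206 to 361 in the SON of WKY, and 3750 to 4290 and 174 to 218 in SHR. All 5 ependymal genes were lower in the SON (1840 to 2460 against 208 to 244 in WKY and 2240 to 2820 against 201 to 243 in SHR), and all 7 genes of meninges and fibroblasts were higher there (312 to 396 against 2000 to 3180, and 368 to 391 against 2620 to 6400). Pmch, which marks the neighbouring lateral hypothalamus, was lower in the SON, with differences of -5.87 in WKY and -5.49 in SHR. Of the 7 general neuronal genes 1 was higher and 1 lower in each strain, and the mean log2 signal of that list was 9.12 ± 0.09 (SD, n = 5) in the PVN and 9.07 ± 0.07 (n = 5) in the SON of WKY, and 9.03 ± 0.20 (n = 5) and 8.88 ± 0.11 (n = 4) in SHR. Of 6 astrocyte genes tested 3 were higher in the SON in each strain, among them Aldh1l1 (2.73 in WKY and 2.40 in SHR) and Gfap (1.13 and 1.36), and the summed signals of the list were 11700 to 13200 in the PVN against 14000 to 17400 in the SON of WKY and 9760 to 13500 against 14200 to 16400 in SHR. Mural cell genes were higher in the SON for 3 of 4 tested in WKY and 4 of 4 in SHR (214 to 259 against 272 to 458, and 192 to 257 against 421 to 1060), and endothelial genes for 3 of 5 and 2 of 5 (960 to 1200 against 1390 to 1810, and 966 to 1280 against 1390 to 1920). Of 6 oligodendrocyte genes 1 was lower in WKY and 3 were higher in SHR, and of 4 microglial genes 1 was lower in WKY and none was called in SHR with limma, where 2 were at unadjusted p under 0.05. No gene of these lists was at the floor on all arrays. The part of these cells and neighbouring regions in the receptor differences was not tested.

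The ligands of the receptors and the enzymes of amine synthesis showed calls in both directions, 5 higher and 9 lower of 19 tested in WKY and 4 higher and 10 lower of 19 in SHR. Among all probe sets tested 26.9% were called in WKY and 29.4% in SHR. Pdyn, the gene of the dynorphins that act on the receptor of Oprk1, was higher in the SON (1.82 in WKY and 1.93 in SHR), and Penk, the gene of the enkephalins, was lower (-2.35 and -1.90). Hcrt, the gene of the orexins (-4.48 and -4.12), and Hdc, the enzyme that makes histamine (-2.84 and -2.43), were lower, the same direction as Hcrtr2 and Hrh3. Npy, the gene of neuropeptide Y, was slightly higher in the SON in WKY (0.33, adjusted p = 0.0343) and did not pass the test in SHR (0.15, adjusted p = 0.385). Tac1, the gene of substance P, was lower (-0.47 and -0.72), and Tac3, that of neurokinin B, did not pass the test (-0.47 and -0.41).

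Of the G protein subunits tested, 1 of 19 was higher and 6 lower in the SON of WKY and 2 higher and 7 lower in that of SHR. Gnai1, an inhibitory alpha subunit (-0.67 and -0.60), and Gnal, a Gs-like alpha subunit (-0.76 and -0.94), were lower, and Gng11, a gamma subunit, was higher (1.45 and 2.35). Of 16 RGS proteins, receptor kinases and arrestins, which shorten receptor signals, 2 were higher and 3 lower in WKY and 2 higher and 4 lower in SHR, among them Rgs4 (-0.98 and -0.83). Of 24 second messenger enzymes 2 were higher and 4 lower in WKY and 3 higher and 8 lower in SHR. Prkar2b, a regulatory subunit of protein kinase A, had the lowest p of these (-1.39 and -1.46). Among all probe sets tested 26.9% were called in WKY and 29.4% in SHR. In WKY the counts of the RGS and second messenger lists lay near that share. Of 9 receptors for other neuropeptides and related ligands, 1 was higher and 4 lower in WKY and 1 higher and 2 lower in SHR, with Aplnr, the apelin receptor, higher in the SON (2.64 and 3.05) and Trhr, the receptor of thyrotropin-releasing hormone, lower (-0.83 and -0.72).

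The comparison of the strains, which asks which receptors differ between hypertensive and normotensive rats, was made within each nucleus. In the SON, 3 of the 22 receptor genes tested were called, 13.6% of them, and all 3 were lower in SHR. Of all probe sets tested 3.63% were called, 2.33% lower and 1.29% higher. The median difference, SHR minus WKY, was -0.08 for the 22 genes and -0.04 for all probe sets. The genes were Tacr3, Oprk1 and Sstr1. None of the 22 was called with the methods' t-test after Benjamini-Hochberg adjustment or with an added 2-fold limit, 1 (Tacr3) was called without the limit on dim genes, and 5 were at unadjusted p under 0.05 with limma.

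Tacr3 had the lowest p of the strain comparison in the SON, where its WKY arrays ran from 6.72 to 7.08 and its SHR arrays from 5.86 to 6.42. It was 1.78-fold lower in SHR (-0.83, SE 0.14, 95% interval -1.13 to -0.53, adjusted p = 0.00546). It kept its call whichever of the 9 arrays was left out (adjusted p between 0.00302 and 0.0206), but not in a fit of all 4 groups (adjusted p = 0.0561). In the PVN Tacr3 was below the limit for testing, at 5.24 ± 0.30 (SD, n = 5) in WKY and 4.60 ± 0.65 (n = 5) in SHR, and the fit of all 4 groups, in which it was tested, gave a difference of -0.64 there (SE 0.23, adjusted p = 0.187).

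Oprk1 encodes the kappa opioid receptor, through which dynorphin inhibits magnocellular neurones. Its log2 signals in the SON were 7.54, 7.57, 7.51, 7.51 and 7.29 in WKY and 6.04, 6.73, 6.97 and 6.86 in SHR. The WKY arrays lay close together and above all SHR arrays, of which array 1 was the lowest. The level was 1.78-fold lower in SHR (-0.83, SE 0.17, adjusted p = 0.0175), and without SHR array 1 the difference was -0.63 (adjusted p = 0.0132). Without a limit on dim genes the adjusted p was 0.0932. In the PVN the values were 7.09, 6.81, 6.90, 6.87 and 6.94 in WKY and 6.89, 6.52, 6.73, 6.45 and 6.33 in SHR, a difference of -0.34 (SE 0.12, adjusted p = 0.196) with overlapping strains. Between the nuclei Oprk1 was higher in the SON of WKY (0.56, SE 0.14, adjusted p = 0.00568), and in SHR the difference was 0.07 (95% interval -0.25 to 0.38). Another probe set of Oprk1 had a difference of -0.41 between the strains in the SON (adjusted p = 0.214), and the last one, with group means between 4.75 and 4.95, was not tested.

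Sstr1 in the SON was 1.37-fold lower in SHR (-0.46, SE 0.11, adjusted p = 0.0459), at 5.20 ± 0.10 (SD, n = 4) against 5.66 ± 0.18 (n = 5). The call was lost without any 1 of 8 of the 9 arrays, all but WKY array 4 (adjusted p between 0.0565 and 0.119), and with the replicate number as a block (-0.43, adjusted p = 0.107). It was also lost without the limit on dim genes (adjusted p = 0.101). Only the WKY mean of Sstr1 in the SON reached that limit (5.32), so the limit itself favoured a lower value in SHR. In the PVN the difference was 0.02 (95% interval -0.22 to 0.26).

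Of the other 19 genes tested in the SON, Hcrtr2 was the one at unadjusted p under 0.05 that was higher in SHR (0.46, SE 0.16, adjusted p = 0.143), and Htr3a was lower (-0.39, SE 0.17, adjusted p = 0.236). Hcrtr2 reached the limit for testing there through SHR alone (group means of 5.39 in SHR and 4.93 in WKY). Htr3a reached it through WKY alone (5.61 in WKY and 5.22 in SHR). The limit itself therefore favoured the direction of each difference. For 20 of the 22 genes the 95% interval of the difference lay within a 2-fold change in either direction, the others being Tacr3 and Oprk1. Ntsr2 had an interval of -0.27 to 0.24 and Chrna7 one of -0.41 to 0.24.

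**Figure D4:**
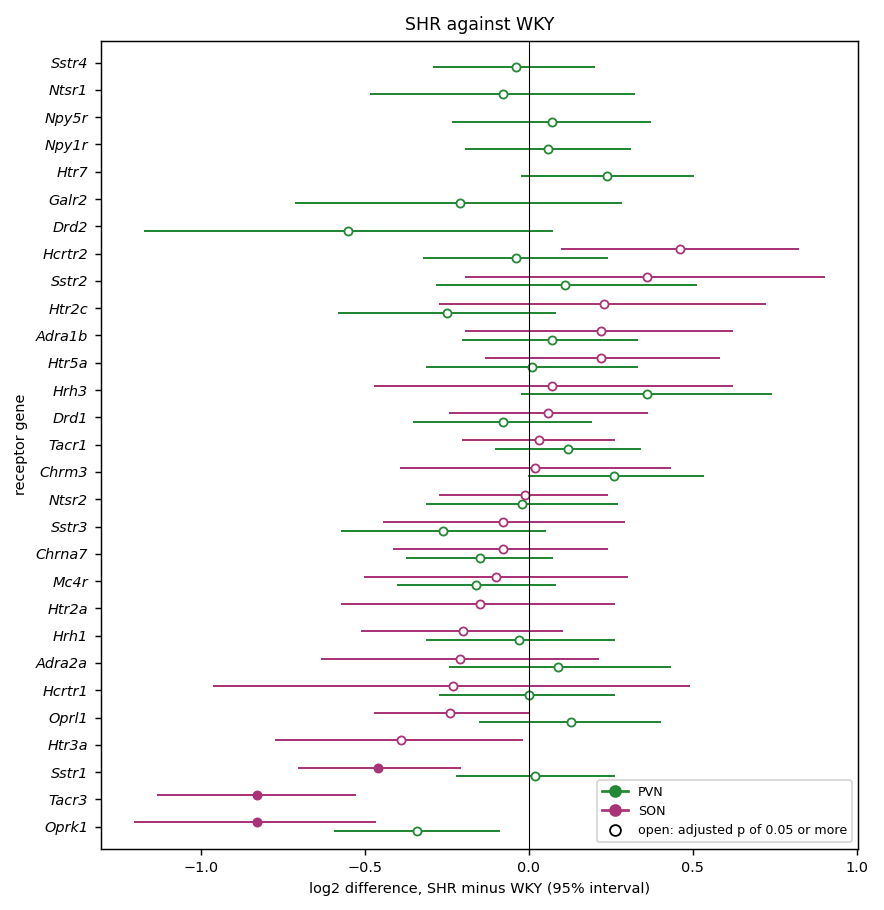
The log2 difference between SHR and WKY (horizontal axis) of the receptor genes tested in the PVN (green, 26 genes) and in the SON (purple, 22 genes), with 95% intervals, filled where the adjusted p was under 0.05. Filled points are seen for Oprk1, Tacr3 and Sstr1 in the SON, at -0.83, -0.83 and -0.46, and for no gene in the PVN.

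Other genes moved between the strains in the SON as well. Of the 7 genes of meninges and fibroblasts 3 were higher in SHR, Lum (1.00, adjusted p = 0.0291), Dcn (1.04, adjusted p = 0.0481) and Crabp2 (1.04, adjusted p = 0.0171), with summed signals of 2620 to 6400 in SHR and 2000 to 3180 in WKY. Of the general neuronal genes 0 of 6 were called, and the mean log2 signal of that list was 8.88 ± 0.11 (SD, n = 4) in SHR and 9.07 ± 0.07 (n = 5) in WKY. Of the magnocellular genes Sim1, a transcription factor of these neurones, was lower in SHR (-0.97, adjusted p = 0.00964), whereas Avp (-0.12), Oxt (-0.03) and Pdyn (-0.40, adjusted p = 0.104) did not pass the test. The part of these in the receptor differences was not tested.

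Among the ligands and enzymes 2 of 16 were called in the SON, both lower in SHR: Cck, the gene of cholecystokinin (-0.63, adjusted p = 0.0154), and Th, the first enzyme of catecholamine synthesis (-0.80, adjusted p = 0.0219). Of 23 second messenger enzymes Prkar1b, a regulatory subunit of protein kinase A, was lower (-0.37, adjusted p = 0.0468). Among all probe sets tested between the strains in the SON 3.63% were called. Of the 19 G protein subunits, the 15 RGS proteins, kinases and arrestins and the 8 other neuropeptide receptors tested with limma none was called.

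In the PVN, none of the 26 receptor genes tested was called between the strains with limma, and none with the methods' t-test. At unadjusted p under 0.05 there was 1 gene, Oprk1. Of all probe sets tested 2.34% were called, 1.13% higher and 1.21% lower in SHR. The median difference of the 26 genes was -0.01, beside -0.04 for all probe sets, and the differences ran from -0.55 to 0.36. For 25 of the 26 genes the 95% interval lay within a 2-fold change, the exception being Drd2.

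For the genes with the lowest p in the PVN the strains overlapped, and with all arrays none passed the test. Higher in SHR without passing the test were Hrh3 (0.36, adjusted p = 0.414), Chrm3 (0.26) and Htr7 (0.24). Below WKY without passing it were Oprk1 (-0.34), Drd2 (-0.55, adjusted p = 0.448) and Sstr3 (-0.26). Drd2 had PVN values of 5.82, 6.19, 6.33, 6.13 and 5.62 in WKY and 6.72, 5.34, 5.74, 4.69 and 4.86 in SHR. SHR array 1 was the highest of all 10 arrays, while the other SHR arrays lay at or under most WKY arrays. Without SHR PVN array 1, which had 1 of the lowest correlations with its group, 2 genes were called, Drd2 and Oprk1, both lower in SHR. Calls rose among all probe sets too. Without that array 726 of 16185 were called, 221 of them higher in SHR, against 378 of 16135, 183 of them higher, with all arrays.

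Npy1r and Npy5r, which set the nuclei apart, did not differ detectably between the strains in the PVN (0.06, 95% interval -0.19 to 0.31, and 0.07, -0.23 to 0.37). They were too dim in the SON for the comparison of strains there. Of the ligands and enzymes in the PVN 1 of 18 was called, Cck, lower in SHR as in the SON (-0.55, adjusted p = 0.0424). Sim1 was lower in SHR in the PVN too (-0.94, adjusted p = 2.82e-05). Of 5 ependymal genes 2 were higher in SHR there, Tekt1 (0.47) and Ak7 (0.48), and their part was not tested.

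Whether the strain difference depended on the nucleus was tested as an interaction, positive where SHR minus WKY was larger in the SON. With limma none of the 29 receptor genes was called, beside 0.0819% of all probe sets, and 5 were at unadjusted p under 0.05. The lowest p was that of Sstr1, whose strain difference was -0.46 in the SON and 0.02 in the PVN (interaction -0.48, 95% interval -0.79 to -0.16, adjusted p = 0.490). The others were Oprk1 (-0.49, adjusted p = 0.668), Hcrtr2 (0.50, adjusted p = 0.681), Htr7 (-0.46, adjusted p = 0.721) and Oprl1 (-0.36, adjusted p = 0.725). For Tacr3, lower in SHR in the SON, the interaction was -0.19 (95% interval -0.88 to 0.50). The strain and nucleus comparisons share arrays, so the values of a gene in these are not independent of each other.

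The other families were represented by few bright genes. Of 13 nicotinic subunits 1 was tested, of 14 serotonin receptors 5, of 8 adrenergic receptors 2, of 5 dopamine receptors 2 and of 5 muscarinic receptors 1. The untested dopamine receptors Drd3, Drd4 and Drd5 had group means between 2.19 and 4.79, and the untested adrenergic receptors between 1.91 and 4.92. Mchr1, the receptor of melanin-concentrating hormone, had group means between 4.43 and 4.74, close together in all groups. Cckbr, the brain receptor of cholecystokinin, was just under the limit, with means of 4.33 and 4.34 in the PVN and 5.20 and 5.01 in the SON of WKY and SHR, and Galr1 and Galr3 had means between 1.91 and 3.01.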

How the data were processed

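The authors deposited MAS5 intensities of 31099 probe sets on 19 arrays, scaled per array. Later GeneSpring steps and detection calls were not used here. Median intensities ran from 35.9 to 46.5 (a range of 0.37 on the log2 scale), so arrays were scaled to a common median, floored at 3.76 (the 10th percentile, which held 8.33% to 10.6% of probe sets per array) and taken to log2. Control probe sets (57) were left out. Symbols came from the platform annotation, updated through Entrez numbers to RefSeq (GRCr8) for 20764 probe sets: 20826 had 1 symbol, 436 several and 9780 none. Probe sets ending in _s_at, _a_at or _x_at, which can bind several transcripts, stood for 9 of the receptor genes.

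Strains were compared within each nucleus, and nuclei and the interaction in 1 fit of all groups, with limma 3.58.1 in R 4.3.3 (two-sided, Benjamini-Hochberg adjustment over all probe sets tested). The procedure was tested on simulated data. The receptor genes and lists were chosen with earlier results of these data known. Named by rule were genes called in a strain comparison or the interaction, genes at least 2-fold apart between nuclei in both strains, vasopressin and oxytocin receptors, the 3 lowest p in each direction where a strain comparison called none, and up to 4 genes per pathway list. Other genes were named to account for their families, after their values were seen. Alternatives covered scaling, floor, filter, fit, weights, moderation, test, probe set and each array left out in turn. Same-numbered arrays did not deviate together (correlations -0.226 to 0.0799 between strains in the PVN, -0.0144 to 0.104 in the SON, -0.00909 to -0.00113 between nuclei of WKY and 0.0351 to 0.174 of SHR), so numbers were not taken as pairs. The labels do not say whether PVN and SON arrays came from the same rats. No 2 arrays were identical (highest correlation 0.984), and their number limits the precision. Figures were drawn with matplotlib 3.10.9. Proteins were not analysed here.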

Additional observations from a re-analysis of the deposited data

Results flagged for a closer look

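Of 128 groups of arrays examined over 33 genes, 10 held an array whose gap to its nearest neighbour was large for the range of its group. Chance gives about 1 such group in 20. Each value given is the log2 signal on the array that stood apart.

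WKY SON array 3 accounted for 4 of these. It was low for Hcrtr1 (3.91, the other arrays 5.50 to 5.94), Ntsr1 (2.77, the others 4.65 to 5.14) and Chrna7 (6.10, the others 6.68 to 6.89), and it was the 1 array with Oxtr above the floor (2.19, the others 1.91). For Oxtr the other 4 arrays were tied at the floor, so any value above it would have stood apart and the chance rate given does not apply. In the PVN of SHR, array 1 was high for Adra2a (7.62, the others 6.77 to 7.01), array 2 low for Chrna7 (6.31, the others 6.61 to 6.70), array 4 high for Htr3a (6.0, the others 5.00 to 5.26) and array 5 high for Hcrtr1 (5.94, the others 5.69 to 5.75). In the SON, SHR array 4 was low for Mc4r (5.41, the others 5.63 to 5.64) and WKY array 5 low for Oprk1 (7.29, the others 7.51 to 7.57), where it still lay above all SHR arrays.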

How the results depend on the processing

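No called difference of a receptor gene changed direction under any alternative run. Of 949 values of single genes 898 kept their side of the threshold while 51 lost their call. Other probe sets of a gene that were too dim to be tested, such as those of Sstr1 that did not share its pattern, were not part of this count. The count of genes called between strains in the PVN ran from 0 to 2 with each array left out and was 0 under the other alternatives. In the SON it was 1 without a limit on dim genes, 0 with the methods' t-test, 0 with a 2-fold limit and 1 with the dimmest probe set of each gene in place of the brightest, and ran from 2 to 3 with each array left out. Between the nuclei the 2-fold limit left 9 genes in WKY and 7 in SHR, and the dimmest probe set left 8 and 6, since many of those probe sets were too dim to be tested. With the replicate number as a block 2 genes were called in the SON, 0 in the PVN, 17 between the nuclei of WKY and 15 of SHR, and Sstr1 in the SON had a difference of -0.43. The interaction had 0 genes called under each alternative. Dim signal limits 51 of the 80 genes, for which no difference could be tested.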
